A study of Acipenser sinensis with 45 samples.

Results

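The pituitaries of 6 male Chinese sturgeon (*Acipenser sinensis*) in gonadal stage II (MP) were compared with those of 6 fish in stage I whose sex was not determined (UP). The 12 pituitary libraries were taken by tissue, stage and sex from the 45 libraries of the series, which come from the hypothalamus, pituitary and gonad of 15 fish. All fish came from an artificial breeding population, with no genetic change or treatment. By the methods of the study the males were more than 4 years old and the stage I fish were 1 year old, so stage, age and sex differ together between MP and UP and cannot be told apart. Each library came from 1 fish, and no fish is on both sides. The hypothalami (MH, UH) and gonads (MG, UG) of the same 12 fish and the pituitaries of 3 females in stage II (FP) are used below only for comparison.

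The pituitary lies below the hypothalamus and releases peptide hormones into the blood. Hypothalamic neurons control its cells, among them the gonadotropes, which secrete follicle-stimulating hormone and luteinizing hormone and so drive the gonad, the corticotropes, and the cells that make growth hormone, prolactin and thyroid-stimulating hormone. A few hormone transcripts are known to make up a large share of the messenger RNA of this gland.

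Levels were given for 121952 unigenes, transcript sequences assembled without a genome, of which 64643 are contigs of clusters of similar sequences and 57309 are single unigenes. No file gives a gene name beside a unigene, and 0 identifiers matched the RefSeq table of 78555 genes (assembly CSRI_AciSin_1.0), so no unigene below is called by a gene name and no hormone transcript could be looked up. The ending "_All" of each identifier is left out. The unit is FPKM, a fragment number divided by unigene length and by all fragments mapped in that library, so levels can be set beside each other between unigenes. Fragments can be shared among contigs of 1 cluster, and the split between such contigs is uncertain.

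One library carries labels that conflict. For male fish 4, the words of the labels call the library used here as pituitary a hypothalamus, while its sample code and the table column mark it as pituitary, and the code was followed. Over 107188 unigenes this library (MP4) correlated with the other MP libraries at Pearson's r of 0.892 to 0.916 on the log2(FPKM + 1) scale, against r of 0.646 to 0.721 between MP and MH libraries in general. FP libraries stood further from MP (r of 0.659 to 0.759) than UP libraries did (r of 0.821 to 0.857), and the reason was not tested. The paper reports differences among the female replicates and offers different families as a possible reason. It also names different instrument models and read lengths within the series, and their part here was not tested. Levels in FP are therefore not read below as an effect of sex. All these correlations are across unigenes, which are not independent replicates. For each of the 12 libraries, the nearest of all others belonged to its own tissue and group. A list of 412 unigenes that mark the pituitary in the 3 females (every FP library at 5 times or more of every female hypothalamus and ovary library, mean of 10 FPKM or more in FP) served as the tissue check, because those libraries are outside the comparison. Its median level per library was 14.4 to 18.0 FPKM in MP and 13.7 to 18.3 FPKM in UP, and 0.689 to 0.964 FPKM in MH.

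A larger share of the male pituitary transcriptome lay in a few unigenes. The 10 highest unigenes of a library held 18.5% ± 1.64 of its summed FPKM in MP and 10.4% ± 0.855 in UP (SD, n = 6 each), with libraries from 16.1% to 20.2% in MP and from 9.32% to 11.7% in UP. The groups did not overlap, and the exact permutation test, two-sided, gave p = 0.00216, the smallest p that 6 against 6 can give. The 100 highest held 31.8% ± 1.98 in MP and 21.7% ± 1.598 in UP (SD, n = 6 each). In the middle of the range the order was the other way. Unigenes at 5 FPKM or more numbered 21161 ± 1339 in MP and 28345 ± 1132 in UP (SD, n = 6 each, exact permutation p = 0.00216). At 1 FPKM or more there were 74132 ± 2019 in MP and 77596 ± 1113 in UP (SD, n = 6 each, exact permutation p = 0.00866).

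FPKM is relative to all fragments mapped in a library, so a larger part in some unigenes leaves less for the others. How far this accounts for the counts above was not tested. Summed FPKM itself was 654351 to 681578 in MP and 685052 to 704375 in UP (exact permutation p = 0.00216). Median-of-ratios factors, which set the level of the typical unigene equal across libraries, were 0.869 to 0.968 in MP and 1.05 to 1.16 in UP. After this scaling the count of unigenes at 1 FPKM or more turned round, to 76976 ± 957 in MP and 75087 ± 377 in UP (SD, n = 6 each, exact permutation p = 0.00433). At 0.1 FPKM or more the counts as deposited were 108078 ± 882 in MP and 107970 ± 485 in UP (SD, n = 6 each, exact permutation p = 0.797). Fold changes and calls between MP and UP are therefore mostly given on both forms of the values. For single unigenes, changes in the other tissues and differences between tissues are given as deposited. Relative sequencing depth, read from values under 0.15 FPKM, was 0.921 to 1.01 in MP and 0.993 to 1.05 in UP (exact permutation p = 0.00433), and its part in these counts was not tested.

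**Figure D1:**
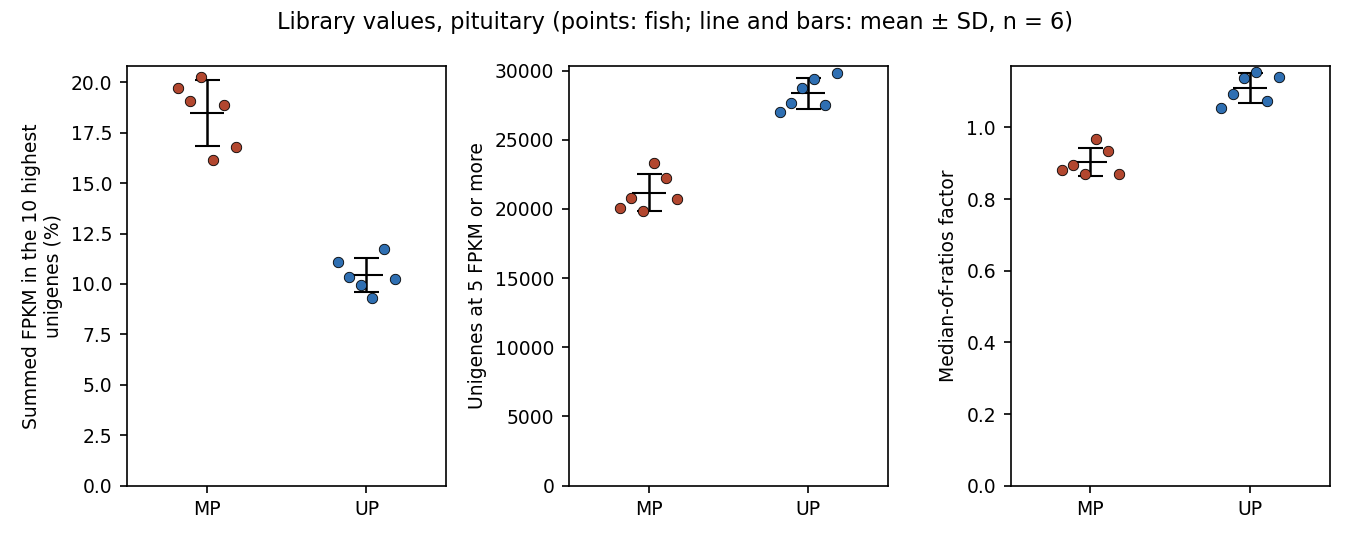
Library values of each pituitary library, MP left and UP right: the percent of summed FPKM in the library's 10 highest unigenes, the number of unigenes at 5 FPKM or more, and the median-of-ratios factor (no unit). Points are fish and the line with bars is the mean ± SD (n = 6 each). The groups do not overlap in any of the 3 panels.

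Between the males and the stage I fish, limma on log2(FPKM + 1) called 28951 of 78482 tested unigenes at a Benjamini-Hochberg adjusted p under 0.05, which is 36.9% of those tested. Of these, 5698 (7.26%) were higher and 23253 (29.6%) lower in MP. After median-of-ratios scaling, 21943 (28%) were called, 10767 (13.7%) higher and 11176 (14.2%) lower. The share of higher calls was thus 19.7% as deposited and 49.1% scaled. The median log2 fold change of all tested unigenes was -0.23 as deposited and -0.016 scaled, so a fall of that size in a single unigene is no more than the shift of the typical one. All 5698 unigenes higher as deposited were also higher when scaled, and all 11176 unigenes lower when scaled were also lower as deposited. A further 12077 were lower only as deposited and 5069 were higher only when scaled. In bulk tissue, fewer cells of a type and less RNA per cell cannot be told apart.

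Most of the called changes were smaller than 1 on the log2 scale. As deposited, 1461 called unigenes were higher and 4894 lower by at least 1 on the log2 scale, and 137 were higher and 209 lower by at least 2. When scaled, 2646 were higher and 2298 lower by at least 1, and 217 higher and 127 lower by at least 2, so the larger number was on the other side at both limits. For 54211 tested unigenes (69.1%) the 95% interval of the fold change lay within 1 of no change on the log2 scale, and for 58180 (74.1%) when scaled. Fold changes on the log2(FPKM + 1) scale understate those of unigenes at low levels. Groups that did not overlap were found for 15.8% of all tested unigenes, 2.53% with MP higher and 13.2% with MP lower, and for 6.06% and 5.63% when scaled. Of the called unigenes, 1959 higher and 10310 lower ones had no overlap as deposited, and 4662 higher and 4339 lower ones when scaled.

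The direction of the calls varied with the level of the unigene. Of 39 unigenes with a mean of 1000 FPKM or more over the 12 libraries, 13 were higher and 3 lower in MP as deposited, and 20 higher and 0 lower when scaled. Their median log2 fold change was 0.23 as deposited and 0.53 scaled. Of 335 unigenes from 100 to 1000 FPKM, 60 were higher and 61 lower as deposited, and 116 higher and 19 lower when scaled. In contrast, of 15252 unigenes from 5 to 10 FPKM, 957 were higher and 6201 lower as deposited, and 1962 higher and 3084 lower when scaled. The excess of higher calls among the abundant unigenes was seen on both forms of the values only at 1000 FPKM or more.

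**Figure D2:**
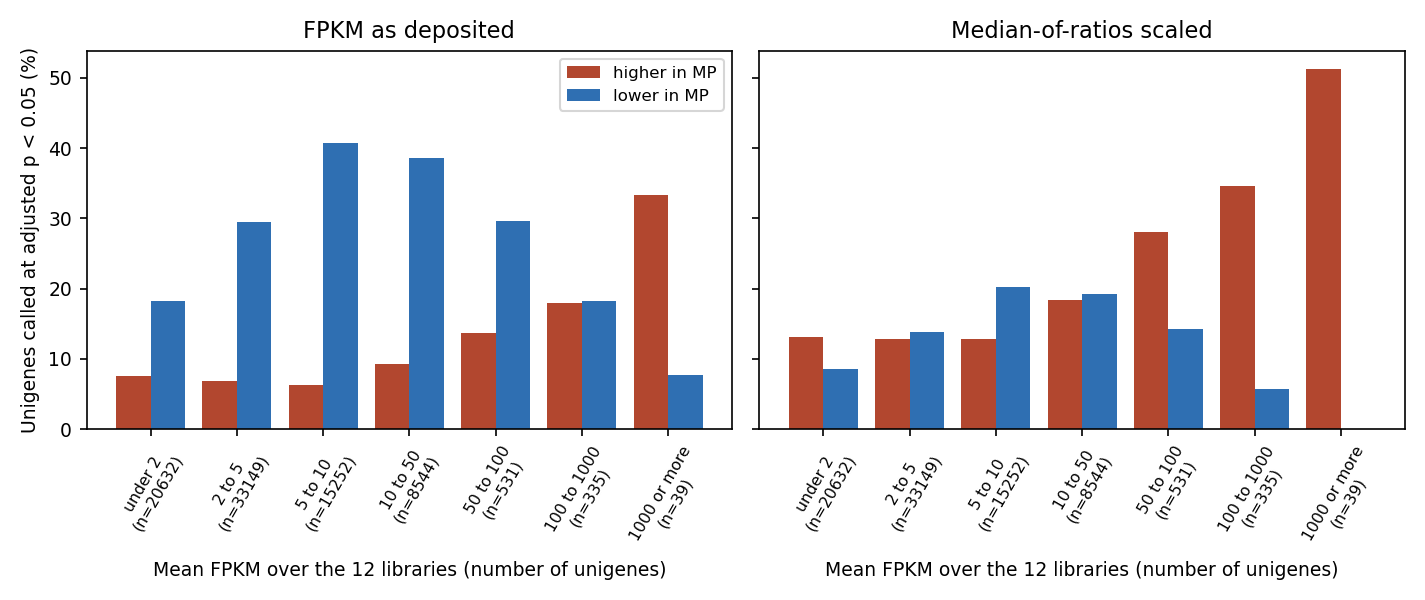
Percent of tested unigenes called higher (red, left bar) or lower (blue, right bar) in MP than in UP, by mean FPKM over the 12 libraries, with FPKM as deposited on the left and after median-of-ratios scaling on the right. Lower calls peak at 40.7% in the class from 5 to 10 FPKM as deposited, and higher calls reach 51.3% in the class of 1000 FPKM or more when scaled.

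Unigenes that mark the pituitary in females were called higher in MP in a larger share, and lower in a smaller share, than all tested unigenes. The females that defined this list were in stage II and in the older age class, like the males and unlike the stage I fish. Unigenes that rise with stage or age could therefore enter the list more readily. How far the shares and sums below rest on this choice was not tested. Of the 412, 399 passed the filter, and 97 of them (24.3%) were higher, 76 (19.0%) lower and 226 not called, against 7.26% higher and 29.6% lower of all tested. When scaled, 131 (32.8%) were higher and 30 (7.52%) lower, against 13.7% and 14.2%. Of all tested unigenes from 10 to 50 FPKM, 9.28% were higher and 38.7% lower, and 18.4% and 19.3% when scaled. This list was not compared at matched levels, nor were the lists of the other tissues below. The median log2 fold change of the pituitary list was 0.06, against -0.23 for all tested unigenes, and 0.32 against -0.016 when scaled. Its summed level was 118187 ± 14800 FPKM in MP and 65469 ± 4197 FPKM in UP (SD, n = 6 each), a ratio of 1.81. Every MP library (100084 to 135549 FPKM) lay above every UP library (60807 to 71989 FPKM), with exact permutation p = 0.00216. Without the 5 unigenes of the list with the highest levels, the sums were 41166 ± 4316 FPKM in MP and 27750 ± 886 FPKM in UP (SD, n = 6 each), a ratio of 1.48 (exact permutation p = 0.00216). The sum of the 407 remaining unigenes thus separated the groups as well. It still held CL4441.Contig1 (means of 5932 FPKM in MP and 1222 FPKM in UP) and CL4441.Contig3 (4568 and 1054 FPKM). Their sibling CL4441.Contig2 was among the 5 left out. How far the remaining difference rested on this cluster was not tested.

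Unigenes of the other tissues were also followed in these libraries. Of 328 that mark the hypothalamus in females by the same rule, 206 passed the filter, and 9 (4.37%) were higher and 71 (34.5%) lower in MP as deposited, against 7.26% and 29.6% of all tested. When scaled, 15 (7.28%) were higher and 33 (16.02%) lower, against 13.7% and 14.2%. On both forms, higher calls were thus rarer and lower calls somewhat more frequent than among all tested. Library medians over all 328 were low, at 1.14 to 1.68 FPKM in MP and 1.54 to 2.05 FPKM in UP. Of all tested unigenes under 2 FPKM, 18.3% were lower as deposited and 8.54% when scaled. From 2 to 5 FPKM, 29.4% and 13.8% were lower. The sum of the list was 776 to 1164 FPKM in MP and 1177 to 1661 FPKM in UP (exact permutation p = 0.00216), and it did not separate the groups after scaling (845 to 1321 in MP and 1031 to 1578 in UP, exact permutation p = 0.0779). No single marker of the hypothalamus could be named, and the part of this tissue in the lower calls was not tested. Of 980 ovary unigenes, 318 passed the filter, with 28 (8.81%) higher and 69 (21.7%) lower as deposited, and 53 (16.7%) higher and 31 (9.75%) lower when scaled, which on both forms is a smaller share of lower calls than among all tested.

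The most abundant unigene, Unigene9682, is in the female pituitary list. Its level was lowest at 19991, 29157 in the median and highest at 39249 FPKM in MP, against 14657, 17436 and 27501 FPKM in UP. The groups overlapped. The log2 fold change was 0.65 ± 0.23 (SE, limma adjusted p = 0.0424), and 0.94 ± 0.26 when scaled (adjusted p = 0.0147). The first of these calls was lost when any one of 9 libraries was left out (all but UP2, UP5 and MP3), with adjusted p from 0.0264 to 0.106 over all 12. It was also lost with no filter (adjusted p = 0.244) and in 1 fit over all 9 groups (adjusted p = 0.548). It was the only unigene of the 6 most abundant, apart from CL4441.Contig2, that was called as deposited.

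The cluster CL4441 holds 3 contigs, all in the pituitary list, and all 3 rose in MP. CL4441.Contig2 had 9961, 14091 and 24659 FPKM (lowest, median, highest) in MP, against 3090, 5910 and 8257 FPKM in UP. Every male was above every stage I fish, and the log2 fold change was 1.42 ± 0.31 (SE, limma adjusted p = 0.00321), or 1.72 when scaled (adjusted p = 0.00187). In 1 fit over all 9 groups this call was lost (adjusted p = 0.218). CL4441.Contig1 had 4129, 6143 and 7563 FPKM in MP, against 718, 1182 and 1822 FPKM in UP. Its lowest male was more than double the highest stage I fish, and the log2 fold change was 2.29 ± 0.23 (SE, adjusted p = 2.96e-05), or 2.58 when scaled. CL4441.Contig3 rose by 2.10 ± 0.27 (SE, adjusted p = 0.000132), or by 2.39 when scaled. With the tissues of male 4 exchanged, no contig was called, and the log2 fold changes were 0.83 for Contig1, -0.037 for Contig2 and 0.66 for Contig3 (adjusted p = 0.654, 0.987 and 0.736). The exchange puts MH4 among the MP libraries, and CL4441.Contig2 was at 22.2 FPKM in MH4 and at 0.822 to 122 FPKM over MH. For a unigene of the pituitary list, such a loss can therefore follow from the exchange alone. Summed over its contigs, the cluster held 17285 to 39471 FPKM in MP and 4385 to 10767 FPKM in UP. Because FPKM is divided by length, this sum also depends on the split where the contigs differ in length. In FP, CL4441.Contig2 stood at 8495 to 19857 FPKM.

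Unigene48049, also of the pituitary list, rose as well. It had 3607, 8984 and 16409 FPKM (lowest, median, highest) in MP, against 1151, 2262 and 2675 FPKM in UP. The groups did not overlap, although the males spread over more than a 4-fold range. Its log2 fold change was 2.06 ± 0.33 (SE, limma adjusted p = 0.000505) and 2.35 ± 0.34 when scaled (adjusted p = 0.000343), and with male 4 exchanged it was 0.49 and not called (adjusted p = 0.817). In MH4, which the exchange puts into MP, this unigene was at 11.5 FPKM. In FP it ranged from 2174 to 21039 FPKM. Unigene63673, which is abundant in every tissue and not in the list, had 8092, 9973 and 10569 FPKM in MP, against 4771, 5884 and 7887 FPKM in UP. Unigene48049 and Unigene63673 were named among called unigenes without overlap, so their lack of overlap was part of the choice. The log2 fold change of Unigene63673 was 0.68 ± 0.16 (SE, limma adjusted p = 0.00611), or 0.97 when scaled (adjusted p = 0.00205). Its call as deposited was lost with no filter (adjusted p = 0.0679) and in 1 fit over all 9 groups (adjusted p = 0.0736).

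A pair of other abundant unigenes of the pituitary list differed among the males themselves. CL19780.Contig2 was at 26958 FPKM in MP2 and 31383 FPKM in MP3, and between 2447 and 8166 FPKM in the other 4 males, against 1459 to 7487 FPKM in UP. Unigene15193 was likewise at 18229 FPKM in MP2 and 19829 FPKM in MP3, and between 3704 and 9013 FPKM in the other 4, against 4870 to 10051 FPKM in UP. The same 2 males were thus the highest for both. Neither unigene was called: the log2 fold change was 1.35 ± 0.61 for CL19780.Contig2 (SE, limma adjusted p = 0.0945) and 0.17 ± 0.44 for Unigene15193 (adjusted p = 0.784), and when scaled 1.65 (adjusted p = 0.0599) and 0.47 (adjusted p = 0.465). The 95% interval was 0.05 to 2.65 for the first and -0.77 to 1.11 for the second. Without MP6 the adjusted p of CL19780.Contig2 was 0.0375. The share of the 10 highest unigenes did not rest on these 2 males, since without MP2 and MP3 it was still higher in MP by 7.44 percentage points (exact permutation p = 0.00476), against 8.03 with them.

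Unigene62915 and CL7009.Contig1 complete the 6 most abundant. Unigene62915 had 7619, 10455 and 16084 FPKM (lowest, median, highest) in MP, against 6617, 9443 and 10534 FPKM in UP, and was not called (log2 fold change 0.25 ± 0.22, SE, limma adjusted p = 0.392, 95% interval -0.22 to 0.71), nor when scaled (0.54, adjusted p = 0.0856). CL7009.Contig1 had 8451, 9830 and 10971 FPKM in MP, against 5942, 7337 and 9255 FPKM in UP. Its call depended on the scaling, with a log2 fold change of 0.41 ± 0.17 as deposited (adjusted p = 0.0659) and 0.71 ± 0.19 when scaled (adjusted p = 0.0136), and without UP5 the adjusted p as deposited was 0.0496. Both were higher still in MH, at 28756 to 49328 FPKM and 14664 to 19528 FPKM.

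**Figure D3:**
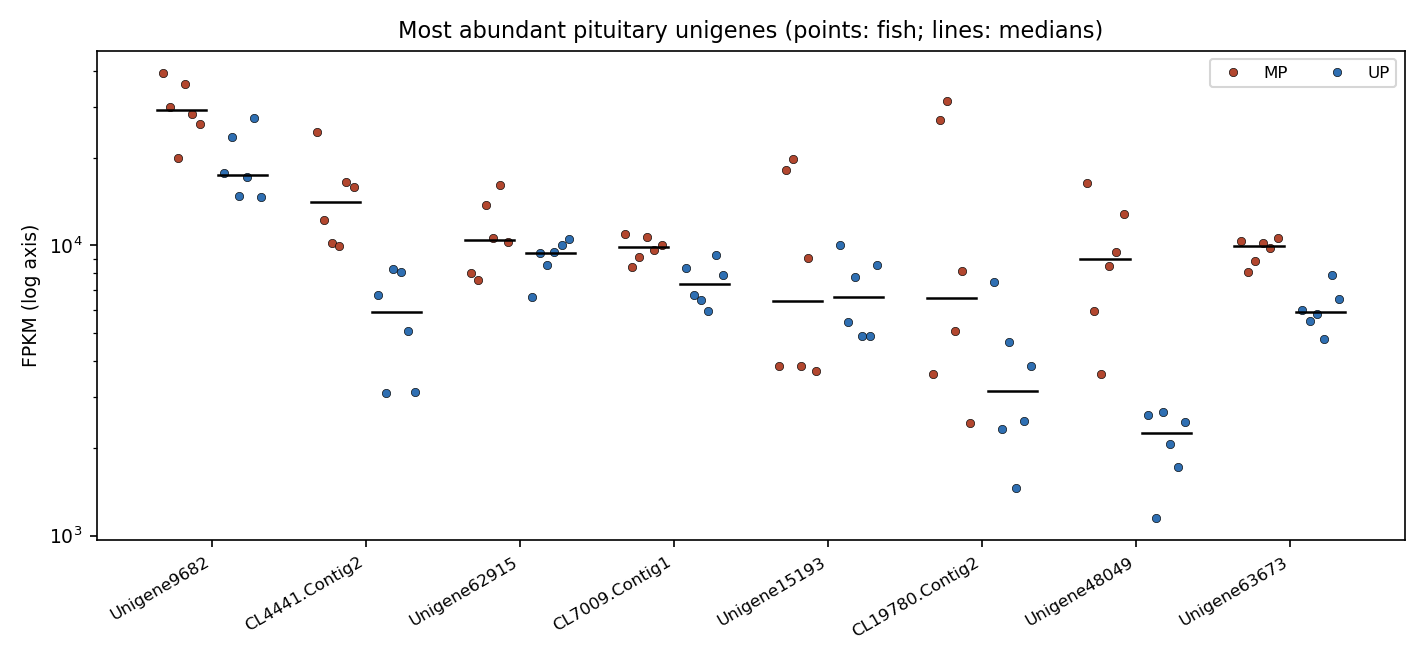
FPKM (log axis) of the 6 most abundant pituitary unigenes and of Unigene48049 and Unigene63673, with MP in red left of UP in blue. Among called unigenes without overlap, these last 2 gained most in the mean after CL4441.Contig2, other contigs of CL4441 aside. Points are fish and lines are medians of 6. CL4441.Contig2, Unigene48049 and Unigene63673 do not overlap between the groups, and MP2 and MP3 stand above the other males for CL19780.Contig2 and Unigene15193.

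Among called unigenes without overlap, CL14440.Contig1 lost most FPKM in the mean. This member of the pituitary list had 165, 198 and 384 FPKM (lowest, median, highest) in MP, against 737, 1034 and 1420 FPKM in UP. Every male was far below every stage I fish, and the log2 fold change was -2.25 ± 0.22 (SE, limma adjusted p = 1.97e-05), or -1.96 ± 0.23 when scaled (adjusted p = 8.57e-05). It fell in the hypothalamus as well, to 38.2 to 59.2 FPKM in MH, against 90.9 to 192 FPKM in UH (log2 fold change -1.52, adjusted p = 0.000143). CL22036.Contig2 had 185, 221 and 292 FPKM in MP, against 475, 525 and 731 FPKM in UP. The groups were well apart, with a log2 fold change of -1.27 ± 0.15 (SE, adjusted p = 6.76e-05), or -0.97 when scaled (adjusted p = 0.000835). CL19488.Contig1 was at 1237 to 1512 FPKM in MP and 1548 to 2414 FPKM in UP. Its fall was called as deposited (-0.41 ± 0.14, SE, adjusted p = 0.0333) but not when scaled (-0.12 ± 0.16, adjusted p = 0.623), and it was lost when UP1, UP2, UP6, MP2, MP4, MP5 or MP6 was left out (adjusted p 0.0280 to 0.0727 over all 12). No filter, 1 fit over all 9 groups and the exchange of male 4 ended this call too (adjusted p = 0.0929, 0.13 and 0.0751).

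Among called unigenes without overlap that averaged at least 10 FPKM where they were higher, Unigene73176 had the highest fold change. It stood at 12.04, 30.2 and 37.6 FPKM (lowest, median, highest) in MP, against 1.05 FPKM in UP2 and a listing at 0 in the other 5 UP libraries. The log2 fold change was 4.61 ± 0.27 (SE, limma adjusted p = 4.96e-07), or 4.76 when scaled. It rose in all 3 tissues, with 4.58 to 25.4 FPKM in MH against at most 0.265 FPKM in UH, and 29.0 to 122 FPKM in MG against at most 3.11 FPKM in UG. In the 3 FP libraries it was listed at 0.

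CL15727.Contig1, a member of the pituitary list, had 160, 308 and 642 FPKM in MP, against 8.49, 21.6 and 42.6 FPKM in UP. The groups were far apart (log2 fold change 3.84 ± 0.41, SE, limma adjusted p = 3.77e-05, 4.13 when scaled), and in FP it stood higher still, at 867 to 2547 FPKM. CL12552.Contig2 had 39.6, 115 and 304 FPKM in MP, against 6.02, 6.86 and 11.4 FPKM in UP (log2 fold change 3.89 ± 0.36, SE, adjusted p = 1.67e-05, 4.17 when scaled). CL1907.Contig2 had 15.4, 40.8 and 62.7 FPKM in MP, against 0.559, 1.89 and 3.99 FPKM in UP. Its log2 fold change was 3.80 ± 0.34 (SE, adjusted p = 1.34e-05, 4.03 when scaled), and the 3 FP libraries were at the level of UP, with 1.56 to 1.91 FPKM. Unigene45462, of the pituitary list, was lower in level but also without overlap, with 2.82 to 34.7 FPKM in MP and 0 to 0.974 FPKM in UP (log2 fold change 2.91 ± 0.41, SE, adjusted p = 0.000218, 3.08 when scaled).

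At the other end of the same ranking, the 4 unigenes with the lowest fold changes had nearly the same profile. Unigene79342 had 0, 0.141 and 3.43 FPKM (lowest, median, highest) in MP, against 8.54, 49.4 and 405 FPKM in UP. No male reached the lowest stage I fish, while the stage I fish differed among themselves by more than 40 times. The log2 fold change was -5.28 ± 0.75 (SE, limma adjusted p = 0.000224), or -5.11 when scaled. Unigene80744, Unigene80121 and Unigene79260 had log2 fold changes of -5.27, -5.17 and -5.10 (adjusted p 0.000291 to 0.000416).

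Because these profiles looked alike, unigenes that fell by at least 2 on the log2 scale and correlated with Unigene79342 at r of 0.95 or more over the 6 UP libraries were collected. There were 12, itself included, chosen after their values were seen and therefore described without a test. Their r ranged from 0.973 up over 6 fish, and their log2 fold changes from -5.28 to -4.42, or from -5.11 to -4.25 when scaled. The median of the 12 was 0 to 3.12 FPKM in MP, against 5.57, 17.5, 29.8, 55.3, 358.9 and 176.1 FPKM in the UP libraries of fish 1 to 6. Within MP the highest was MP4, the library with the conflicting labels. All 3 tissues of the stage I fish held these unigenes, while the males lacked them nearly throughout. The medians were at most 0.795 FPKM in MH, against 47.7 to 363.8 FPKM in UH, and at most 4.82 FPKM in MG, against 3.48 to 271.0 FPKM in UG, so that only the gonad medians overlapped. Among the stage I fish, the one with the highest pituitary level, fish 5, had the highest level in UH and the lowest in UG. In the 9 female libraries the median of the 12 was 0.

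**Figure D4:**
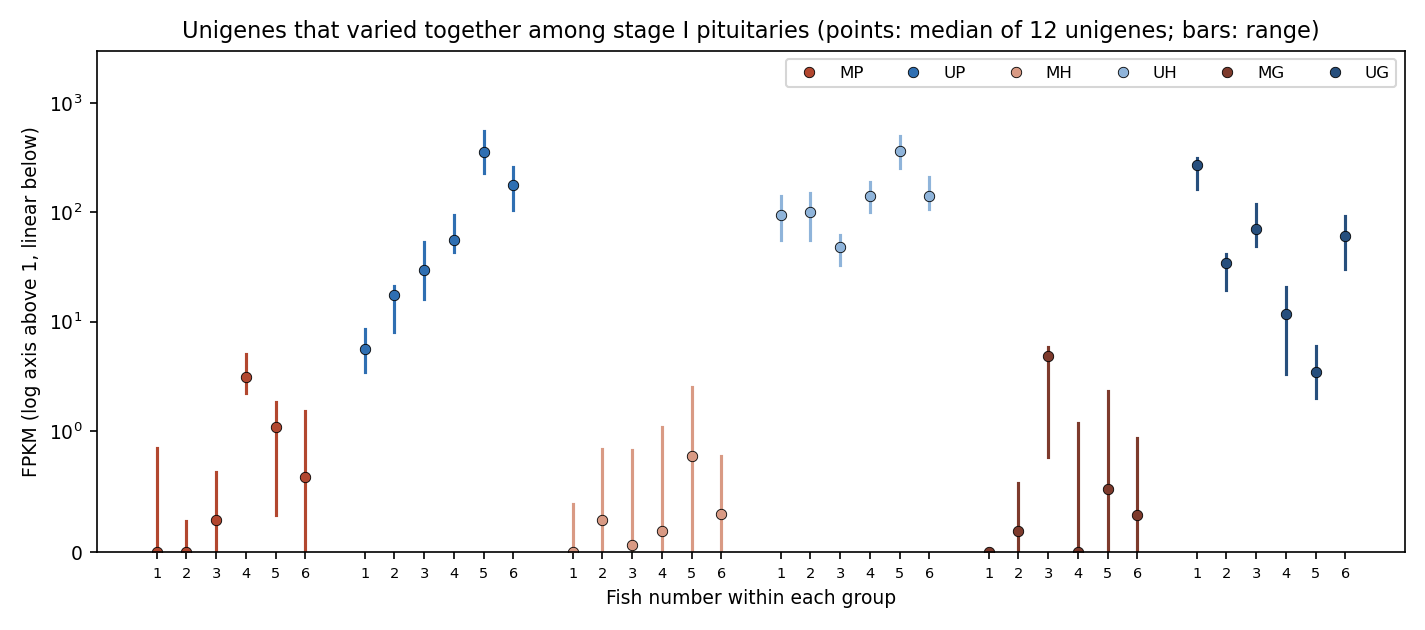
FPKM of the 12 unigenes that varied together among the stage I pituitaries, by library (fish number on the x axis, groups in the order MP, UP, MH, UH, MG, UG). Points are the median of the 12 unigenes and bars their lowest and highest value, on an axis that is logarithmic above 1 FPKM and linear below. The MP medians lie between 0 and 3.12 FPKM and the UP medians between 5.57 and 358.9 FPKM.

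Other strong falls did not share this spread among the stage I fish. Unigene52857, named after its values were seen, had 0.0953, 0.239 and 0.508 FPKM in MP, against 13.0, 26.7 and 44.9 FPKM in UP (log2 fold change -4.35 ± 0.23, SE, limma adjusted p = 2.56e-07, -4.18 when scaled). CL8136.Contig1, chosen in the same way, was listed at 0 in 5 MP libraries and at 0.261 FPKM in MP4, against 11.4 to 31.7 FPKM in UP (-4.15 ± 0.20, SE, adjusted p = 1.02e-07, -4.01 when scaled). Unigene78723, also chosen after its values were seen, had 0 to 15.9 FPKM in MP, with the highest value in MP4, against 40.7 to 72.7 FPKM in UP. In MH it was also highest in male 4, at 20.6 FPKM. All 3 also fell in the hypothalamus and in the gonad. Unigene52857 was at 4146 FPKM in 1 FP library and listed at 0 in the other two. CL3619.Contig2, of the pituitary list, had 0.999 to 4.68 FPKM in MP and 7.63 to 15.4 FPKM in UP (-2.08 ± 0.23, SE, adjusted p = 4.63e-05, -1.85 when scaled).

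Some unigenes were listed at 0 in all libraries of 1 group. There were 11 at 1 FPKM or more in all 6 MP libraries and listed at 0 in all 6 UP libraries. The highest on average was Unigene38046, with 4.64 to 13.9 FPKM in MP. The reverse held for 6 unigenes, among them Unigene96106 with 2.79 to 22.2 FPKM and Unigene95595 with 1.66 to 26.2 FPKM in UP, both listed at 0 in all MP, MH and MG libraries. A value of 0 in estimated levels can be a failed estimate, so no fold change is given.

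How far these changes were shared with the other tissues was read from the same fish. The tissue comparisons share fish but no libraries, and no test of their overlap was made. In the hypothalamus 17.3% of tested unigenes were called, 7.21% higher and 10.1% lower in MH than in UH (8.71% and 9.88% when scaled). Of 4708 unigenes higher in MP and tested in both tissues, 2042 (43.4%) were also higher in MH, which is 43.4% of the MH list too, and 50 were lower. Of 21430 lower in MP, 5514 (25.7%) were also lower in MH, 76.3% of the MH list, and 100 were higher. When scaled, 3202 of 9191 higher unigenes (34.8%, and 55.9% of the MH list) and 3981 of 10249 lower ones (38.8%, and 56.1%) moved the same way, and 77 and 50 the opposite way. In the gonad 37.3% were called, 31.1% higher and 6.19% lower in MG than in UG (14.1% and 12.2% when scaled). Of 4711 unigenes higher in MP and tested in both, 2617 (55.6%) were higher in MG, which is 14.0% of the MG list. Of 19733 lower in MP, 2520 (12.8%) were lower and 2653 (13.4%) higher in MG. Among all unigenes tested in both, 6.54% were lower and 28.5% higher in MG. When scaled, of 9197 lower in MP, 3023 (32.9%, and 35.0% of the MG list) were lower and 296 (3.22%) higher in MG. The shares of all unigenes tested in both were then 13.2% and 11.8%. Of 9123 higher in MP when scaled, 2522 (27.6%, and 32.6% of the MG list) were higher and 460 lower in MG. Across all 3 tissues, 1257 unigenes were higher and 1233 lower of 59452 tested in each, and 1083 and 1648 when scaled.

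Among the unigenes that moved the same way in the 3 tissues was CL87.Contig15, with 8.42 to 17.9 FPKM in MP and 0.378 to 1.86 FPKM in UP (log2 fold change 3.01 ± 0.21, SE, limma adjusted p = 2.11e-06, 3.21 when scaled). Its log2 fold change was 3.33 in the hypothalamus and 2.81 in the gonad. Unigene78854 and Unigene79565 fell in all 3, and both belong to the 12 unigenes that varied together. In MP they were at most at 4.81 and 2.95 FPKM, against at least 5.37 and 4.82 FPKM in UP.

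Whether the pituitary changed differently from the other tissues was tested on the differences within each fish. The change from UP to MP differed from that in the hypothalamus for 4971 of 91104 unigenes (5.46%), 1070 (1.17%) with a higher and 3901 (4.28%) with a lower change in the pituitary. When scaled it differed for 3727 (4.09%), 1945 (2.13%) higher and 1782 (1.96%) lower. This count fell by more than 1.5 times without stage I fish 3, 4 or 5 (2899, 2653 and 2334 unigenes) and without male 1, 2, 3 or 5 (2667, 2100, 2699 and 2933), and with the tissues of male 4 exchanged it was 115. That exchange reverses the sign of the difference within male 4, so a lower count can follow from it alone. From the gonad the pituitary change differed for 38070 of 94384 (40.3%), 3242 (3.43%) higher and 34828 (36.9%) lower, and when scaled for 16342 (17.3%), 7659 (8.11%) higher and 8683 (9.2%) lower. Of 78482 tested unigenes, 5698 were called higher in MP, and 330 of these also went beyond both other tissues in that direction. Of 23253 called lower, 1862 did so. When scaled, these were 690 of 10767 higher and 437 of 11176 lower ones, so the larger number changed sides. The difference tests use the same MP and UP values, so called unigenes lean that way by construction, and no test of this overlap was made.

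CL12552.Contig2 was the rising unigene furthest beyond both tissues. It stood at 39.6 to 304 FPKM in MP and 6.02 to 11.4 FPKM in UP, while in MH and UH it had 0.790 to 4.74 and 1.87 to 9.68 FPKM and in MG and UG 2.56 to 4.19 and 3.21 to 8.69 FPKM. Its change exceeded that in the hypothalamus by 4.64 (limma adjusted p = 1.82e-05) and that in the gonad by 4.45 (adjusted p = 9.29e-05) on the log2 scale. This unigene, Unigene65054, Unigene53249 and Unigene1390 were chosen for adjusted p under 0.05 and large differences in both of these tests. Their values in these tests are therefore part of the choice. Unigene65054 had 38.2, 57.0 and 80.4 FPKM (lowest, median, highest) in MP, against 3.51, 5.48 and 13.6 FPKM in UP (log2 fold change 2.98 ± 0.26, SE, adjusted p = 9.99e-06, 3.25 when scaled), and stayed below 5 FPKM in every library of the other 2 tissues of these fish. In FP both were present, at 29.0 to 238 FPKM for CL12552.Contig2 and 24.2 to 79.7 FPKM for Unigene65054.

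Unigene53249 and Unigene1390 fell in the pituitary beyond the other tissues. Unigene53249 had 1.37, 5.91 and 9.08 FPKM in MP, against 22.1, 29.2 and 39.2 FPKM in UP (log2 fold change -2.38 ± 0.32, SE, limma adjusted p = 0.000155, -2.12 when scaled). In the hypothalamus and gonad of the same fish it was called higher in the males as deposited, by 0.93 (adjusted p = 0.0352) and 1.24 (adjusted p = 0.0319). The groups overlapped in both tissues. Levels were 34.3 to 67.5 FPKM in MH and 12.2 to 44.4 FPKM in UH. In the gonad they were 3.94 to 7.03 FPKM in MG and 0.0799 to 8.16 FPKM in UG, with the highest value in a stage I fish. Unigene1390 had 1.30, 1.85 and 3.67 FPKM in MP, against 9.34, 38.0 and 46.2 FPKM in UP (-3.22 ± 0.36, SE, adjusted p = 5.04e-05, -2.98 when scaled). Its level in MH (1.64 to 3.21 FPKM) overlapped that in UH (1.86 to 3.30 FPKM).

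**Figure D5:**
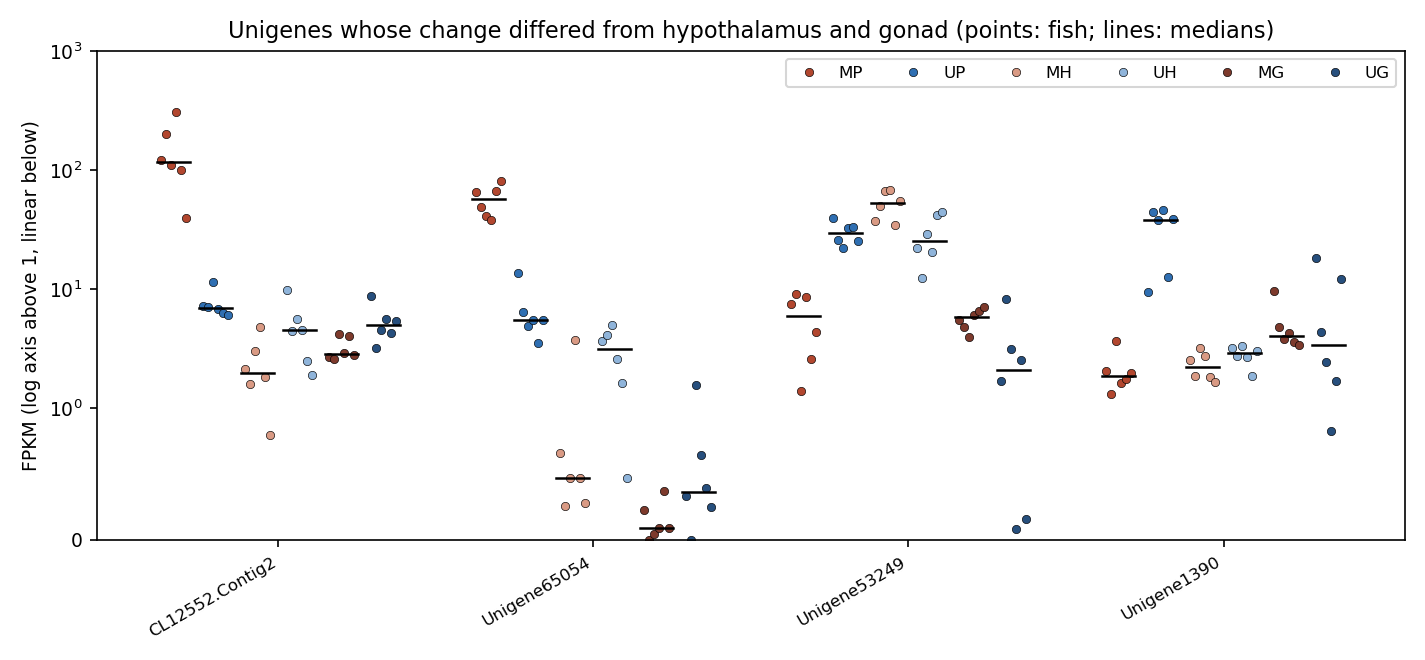
FPKM of 4 unigenes whose change differed from both other tissues, in MP, UP, MH, UH, MG and UG from left to right, on an axis that is logarithmic above 1 FPKM and linear below. Points are fish and lines are medians of 6. CL12552.Contig2 and Unigene65054 are high only in MP among these 6 groups, with at least 38.2 FPKM, and Unigene1390 is at 9.34 to 46.2 FPKM in UP.

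Contigs of 1 cluster could move in opposite directions. Of 11567 clusters with at least 2 tested contigs, 388 (3.35%) held a called higher and a called lower contig, 370 when scaled and 187 on both forms of the values. In CL87, Contig15 rose as given above, while Contig13 had 24.05 to 54.7 FPKM in MP and 58.0 to 106 FPKM in UP (log2 fold change -1.11 ± 0.22, SE, limma adjusted p = 0.0016, and -0.82 when scaled, adjusted p = 0.0117). This fall was not called in 1 fit over all 9 groups (adjusted p = 0.0564). The sum over all 15 contigs of CL87 was 93.2 ± 16.4 FPKM in MP and 131 ± 23.6 FPKM in UP (SD, n = 6 each, exact permutation p = 0.0152). In CL2641, Contig4 had 13.9 to 20.9 FPKM in MP and 0.958 to 7.17 FPKM in UP (2.25 ± 0.33, SE, adjusted p = 0.000279, 2.49 when scaled). Contig1 of that cluster had 0.563 to 7.26 FPKM in MP and 9.19 to 12.1 FPKM in UP, a fall called as deposited (-1.15 ± 0.32, SE, adjusted p = 0.013) but not when scaled (adjusted p = 0.0547). The sum over all 5 contigs of CL2641 was 38.5 ± 4.49 FPKM in MP and 27.0 ± 3.06 FPKM in UP (SD, n = 6 each, exact permutation p = 0.00216). This total did not overlap between the groups (31.1 to 44.3 FPKM in MP and 21.9 to 29.3 FPKM in UP). In CL14643, Contig12 rose by 2.32 ± 0.34 and Contig8 fell by 0.84 ± 0.17 on the log2 scale (SE, adjusted p = 0.000287 and 0.00203), and when scaled the changes were 2.58 and -0.55 (adjusted p = 0.0002 and 0.0388). The sum of its 12 contigs was 276 ± 75.8 FPKM in MP and 250 ± 52.6 FPKM in UP (SD, n = 6 each, exact permutation p = 0.526), so the total of CL14643 overlapped where its named contigs did not.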

How the data were processed

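Total RNA of 45 tissues was made into cDNA libraries and sequenced in pairs of reads, the 12 pituitaries used here on 1 instrument model. The authors built the unigenes with Trinity from the filtered reads of every library, mapped the reads back with SOAP2 and estimated FPKM with RSEM. The deposited table holds FPKM and no counts, so no count model was run. The read numbers that the paper lists for each library were not used, and depth is given here only in relative terms. All sample columns were used (0 left out).

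MP and UP were compared with limma 3.58.1 (lmFit and eBayes with trend, R 4.3.3), two-sided, on log2(FPKM + 1), with Benjamini-Hochberg adjustment and a threshold of 0.05. Unigenes had to reach 1 FPKM in 6 or more of the 12 libraries, which a unigene can do through 1 group alone. Differences between tissues were fitted in the same way to differences within each fish, with the same minimum in 6 or more of 24 libraries. Values per library were compared with exact permutation tests. Fits were tested on simulated data. Error bars and SE describe the spread between fish.

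Unigenes named included the 6 most abundant. All others named by rule were called and without overlap between the groups, so their lack of overlap was set by this choice. The 4 largest rises and falls among them had to average 10 FPKM or more in the higher group. The 3 largest gains and losses of FPKM were taken with 1 contig per cluster. Also named were 2 rises and 2 falls each in the female pituitary list, beyond both other tissues, and shared by 3 tissues. To these came 3 clusters with opposed contigs. Exceptions are given where they occur. Members and lists were chosen with earlier results of these data known. Lists of hormone and marker genes by name could not be used. Alternatives were a pseudocount of 0.1, no filter or 5 FPKM, median-of-ratios scaling, a log2 fold change of 1, a replicate block, 1 fit over 9 groups, each library left out, male 4 exchanged and the NOISeq rule (probability of 0.8, zeros at 0.5), written anew because the program is not installed. Replicate numbers do not pair MP with UP, which are different fish. Other tools were SciPy 1.17.1, Matplotlib 3.10.9, Python 3.11.15, pandas 2.3.3 and NumPy 2.4.6.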

Additional observations from a re-analysis of the deposited data

Results flagged for a closer look

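In 11 of 86 groups of 6 libraries 1 library stood apart by Dixon's test. Its cut flags about 1 in 20 groups of independent, normally distributed values. FPKM is bounded at 0, and Unigene73176 in UP and CL8136.Contig1 in MP were listed at 0 in 5 libraries. Unigene79342 and Unigene78854 are among the unigenes that varied together. The number flagged therefore cannot be set against that rate. In MP, CL3619.Contig2 was highest in MP2 (4.68 FPKM) and Unigene1390 in MP3 (3.67 FPKM). The other 4 found in MP were all highest in MP4, the library whose labels conflict: Unigene79342 (3.43 FPKM), Unigene78854 (4.81 FPKM), Unigene78723 (15.9 FPKM) and CL8136.Contig1 (0.261 FPKM). These 4 unigenes are high in UP. Unigene78723 was also highest of MH in MH4, at 20.6 FPKM, and highest of MG in MG6 and MG4, at 4.97 and 4.92 FPKM. In MH4, Unigene79342, Unigene78854 and CL8136.Contig1 were at 0, 0.282 and 0 FPKM. In UP, Unigene73176 was at 1.05 FPKM in UP2 and listed at 0 in the other 5, CL12552.Contig2 at 11.4 FPKM in UP3, CL22036.Contig2 at 730.8 FPKM in UP2 and Unigene65054 at 13.6 FPKM in UP1, each above the other 5. UP6 had the fewest unigenes listed at 0, with 9796.

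The change from UP to MP differed between tissues by a test of the difference for 4971 unigenes against the hypothalamus and 38070 against the gonad. On the log2 scale, the pituitary change of CL12552.Contig2 exceeded that of the hypothalamus by 4.64 (limma adjusted p = 1.82e-05) and that of the gonad by 4.45 (adjusted p = 9.29e-05). For Unigene65054 the differences were 4.01 (adjusted p = 0.000903) and 3.35 (adjusted p = 0.000117). Unigene53249 differed by -3.31 (adjusted p = 0.00142) and -3.62 (adjusted p = 0.000446), and Unigene1390 by -3.01 (adjusted p = 0.000966) and -3.30 (adjusted p = 0.00257). All of these named unigenes were chosen by these same tests, so their small adjusted p was part of the choice.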

How the results depend on the processing

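Against 28951 calls (5698 higher, 23253 lower in MP), a filter at 5 FPKM, which tests fewer unigenes, gave 11973 (2017 and 9956). A log2 fold change of at least 1, stricter by construction, gave 6355 (1461 and 4894). The NOISeq rule was applied to 118654 unigenes and called 5685 (1500 and 4185). Of these, 1137 higher and 3935 lower ones were also called by limma. Median-of-ratios scaling gave 10767 higher and 11176 lower, and, in 2 alternatives chosen after seeing the data, 9430 and 10120 without MP4 and 10413 and 10809 with a pseudocount of 0.1. Leaving out 1 library gave 25065 to 27673 calls, 4574 to 5451 higher and 20066 to 22415 lower. With male 4 exchanged, 3988 were higher and 20019 lower, and Unigene9682 and CL4441.Contig2 turned to -1.14 and -0.037 on the log2 scale, while CL4441.Contig1, CL4441.Contig3, Unigene48049 and CL19488.Contig1 kept direction, and none of these 6 was called. Of these, Unigene9682, CL4441.Contig2 and Unigene48049 were at 20.3, 22.2 and 11.5 FPKM in MH4, the library put into MP. Their loss can therefore follow from the exchange alone. A single fit over all 9 groups ended the calls of Unigene9682, CL4441.Contig2, Unigene63673, CL19488.Contig1 and CL87.Contig13, and no filter those of Unigene9682, Unigene63673 and CL19488.Contig1. The difference in unigenes at 1 FPKM or more, MP minus UP, was -3464, and it turned to 108.3 at 0.1 FPKM (exact permutation p = 0.797) and 1889 after scaling (exact permutation p = 0.00433). Leaving out 1 library moved it between -4045 and -2974 and the difference in the share of the 10 highest unigenes between 7.68 and 8.50 percentage points.

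For the difference from the hypothalamus (4971 calls, 1070 and 3901), scaling gave 1945 higher and 1782 lower changes, the exchange 115 (56 and 59), and leaving out 1 fish 2100 to 7383 (530 to 1219 and 1570 to 6164). From the gonad (38070, 3242 and 34828), scaling gave 16342 (7659 and 8683) and leaving out 1 fish 29864 to 40848 (2541 to 3362 and 27190 to 37486). Of 775 values of 38 named unigenes under all alternatives, 730 kept direction and side of the threshold, 37 lost a call, 6 gained one and 2 turned. Apart from the values printed here the cause of such changes was not tested.

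The replicate block, a term for the fish number, left 25849 calls (5052 higher, 20797 lower), and lost the calls of Unigene9682 (adjusted p = 0.0565) and CL19488.Contig1 (adjusted p = 0.0646) but no other named one. The numbers are not a pairing of fish: correlations of deviations between libraries with the same number ran from -0.176 to 0.0604, and 0 of 6 MP libraries correlated best with their own number.

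The values are shares of libraries with no counts, so no counting error can be given for low unigenes. With 6 fish a group, intervals reach far for unigenes that vary among fish. Stage, age and sex are confounded, and 1 MP library with conflicting labels was taken by its sample code. In the paper's read statistics, base quality (Q20) and GC content also separate the MP from the UP libraries without overlap. Their part in these results was not tested.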
